A study of Mus musculus with 16 samples.

Results

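The 10 genes described here are transcription factors that drive the formation of fat cells, together with the fat cell hormones adiponectin and leptin: Pparg, Cebpa, Cebpb, Cebpd, Srebf1, Ebf1, Zfp423, Klf15, Adipoq and Lep. They were chosen by name, with earlier results of these data known, and every probe annotated with one of these symbols was taken. Counts among them beside shares of all genes are therefore a description and not a test. Of the 10 genes, 9 had a probe, with 13 probes in all, among 16593 genes measured by 25697 probes. Pparg had 3 probes, Srebf1 and Zfp423 had 2 each and the others had 1. No probe was named Cebpd, which is not analysed here.

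The measurements come from fibro/adipogenic progenitors (FAPs), the mesenchymal progenitors of skeletal muscle that can become fat cells or fibroblast-like cells, kept in culture on plates and profiled on Illumina MouseRef-8 v2.0 bead arrays. All cells came from Balb/cJ mice. The 4 groups were Il4ra knockout cells (IL4RA -/-, without the alpha chain of the interleukin-4 receptor) given recombinant IL-4, the same knockout cells given vehicle, wild-type cells given recombinant IL-4, and wild-type cells given vehicle, with 4 biological replicates each and 16 arrays in all. The comparison asks whether IL-4 shifts gene expression of these progenitors through its receptor. The labels used here give no age or sex of the mice, no IL-4 dose or time and no culture medium, and they do not limit the knockout to a cell type.

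In the textbook account of adipogenesis, C/EBP beta and C/EBP delta act early and switch on PPAR gamma, the nuclear receptor without which fat cells do not form, and C/EBP alpha. These last factors maintain each other's expression and turn on the genes of the mature fat cell, for lipid uptake, triglyceride synthesis and adiponectin. EBF1 and ZFP423 mark or commit the preadipocyte, KLF15 and SREBP1c, a product of Srebf1, support the lipid-making programme, and leptin is a hormone mostly of large, lipid-filled fat cells. IL-4 signals through its receptor to the transcription factor STAT6.

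The values are deposited log2 values, and a difference of 1 is a doubling. The lowest value on an array was 7.72, and 57.0% of probes lay within 0.15 of it, where changes are compressed. Adipoq averaged 12.63, Pparg 11.51 by its brightest probe, Cebpb 11.24, Cebpa 9.09 and Srebf1 8.71 by its brighter probe, all well above that minimum. Zfp423 at 8.10, Ebf1 at 7.99 and Lep at 7.88 were close to it, and Klf15 at 7.85 was within 0.15 of it. In bulk RNA, fewer cells of a kind and less RNA per cell cannot be told apart.

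Of the 8 measured FAP markers none was near the array minimum, and their mean level ran over 9.56 to 9.58 in knockout cells with IL-4, 9.49 to 9.56 in knockout cells with vehicle, 9.30 to 9.42 in wild-type cells with IL-4 and 9.30 to 9.38 in wild-type cells with vehicle. Near the minimum were 5 of the 7 measured leukocyte markers (among them Ptprc, Adgre1 and Itgam) and 5 of the 7 endothelial markers (among them Pecam1 and Cdh5). So were 5 of the 7 measured myogenic markers (among them Pax7 and Myod1) and 3 of the 7 pericyte and smooth muscle markers. The other markers of these lists lay above it. On the third principal component (5.39% of the variance) knockout vehicle arrays 2 and 3 stood apart at -6.95 and -7.52, with the other arrays between -3.14 and 4.77. Each result was therefore also computed without these 2 arrays, and the values are given where a call changed. Il4ra itself had no annotated probe, and the knockout was therefore not checked by its own transcript.

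In wild-type cells 5 of the 9 measured genes fell with IL-4 and none rose. Adipoq fell to 0.739 of its vehicle level, Cebpa to 0.760, Srebf1 to 0.795, Pparg to 0.834 and Zfp423 to 0.934. These ratios are those of the deposited scale. Over the alternative runs the log2 change was -0.50 to -0.39 for Adipoq and -0.58 to -0.37 for Cebpa. For Srebf1 it was -0.54 to -0.16, so the order of these genes is not fixed. Cebpb, Ebf1, Klf15 and Lep did not pass the test. In all, 8.79% of genes were lower and 7.14% higher in this comparison by the same test (limma, adjusted p under 0.05 over all probes). Among the 7752 genes at least 0.15 above the array minimum, 18.5% were lower and 14.5% higher. Such shares were computed for this comparison alone, and those given for the other comparisons include genes near the minimum. The median change of the 9 genes was -0.10, against -0.00157 over all genes. The latter includes the many genes near the array minimum, and no median was computed for genes above it alone.

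**Figure D1:**
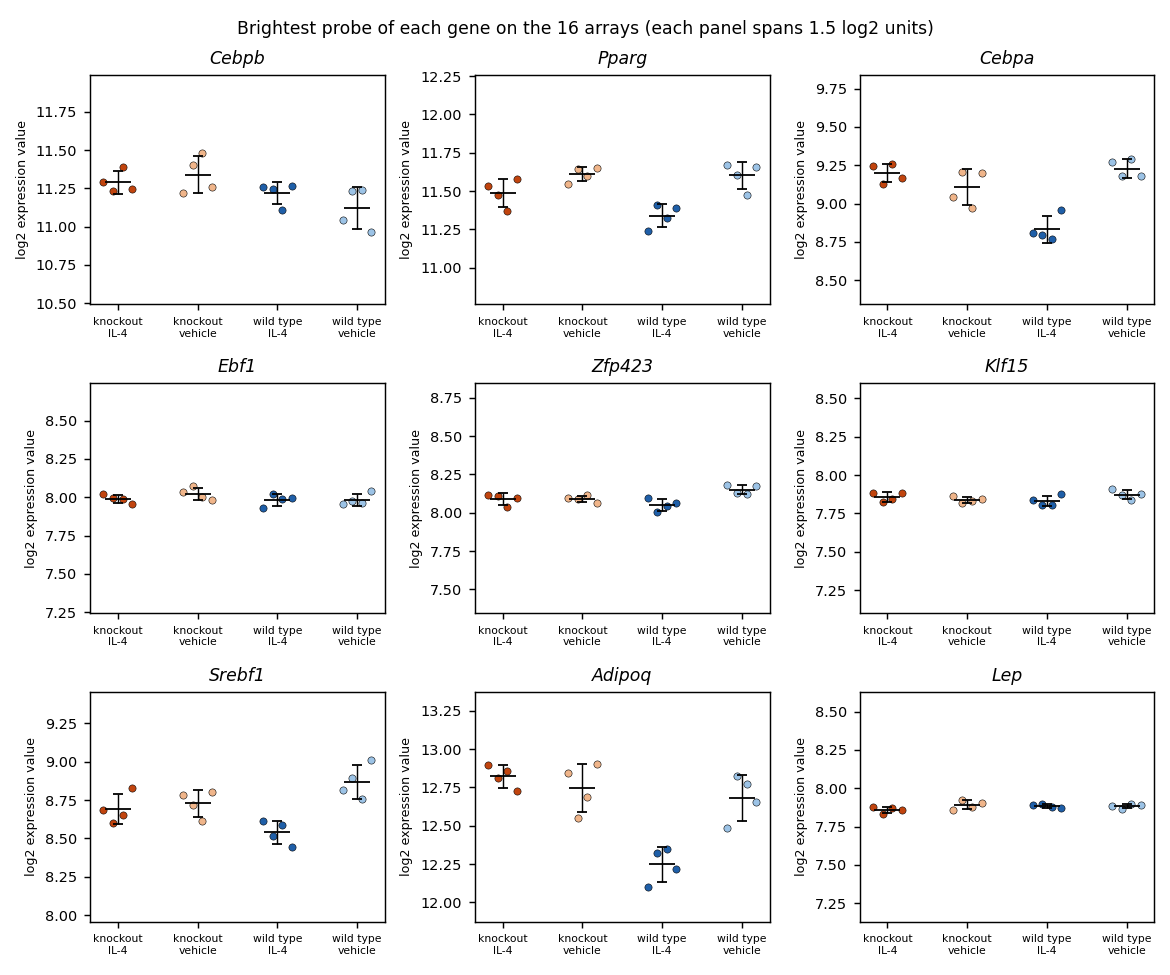
Log2 expression value (y axis, each panel spanning the same number of log2 units) of the brightest probe of each gene in the 4 groups (x axis). Points are single arrays, the long bar is the group mean and the whiskers are 1 SD (n = 4). For Adipoq, Cebpa, Pparg and Srebf1 the mean of the wild-type IL-4 arrays is the lowest of the 4 groups, at 12.25, 8.83, 11.34 and 8.54, and for Pparg and Srebf1 single knockout arrays lie inside the wild-type IL-4 range.

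Pparg was read most strongly by a probe with values of 11.24, 11.41, 11.32 and 11.39 in wild-type cells with IL-4, against 11.67, 11.61, 11.48 and 11.65 in wild-type cells with vehicle. The groups did not overlap: the highest IL-4 array lay below the lowest vehicle array. The means were 11.34 ± 0.08 with IL-4 and 11.60 ± 0.09 with vehicle (SD, n = 4 each), a change of -0.26 ± 0.05 (SE) with an adjusted p of 0.00215 by limma. The dimmest Pparg probe read 8.12, 8.09, 8.19 and 8.15 with IL-4, against 8.48, 8.55, 8.24 and 8.44 with vehicle. It fell by 0.29 ± 0.08 (SE; limma adjusted p = 0.0289), again with no overlap. That call was lost without any 1 of 6 of the 8 wild-type arrays (IL-4 arrays 5, 6 and 8, vehicle arrays 1, 2 and 4), with adjusted p between 0.0571 and 0.0975, and the change was -0.59 after subtraction of the array minimum with an offset of 50. The Pparg probe of middle brightness changed by -0.15 ± 0.06 and did not pass (limma adjusted p = 0.166), and its groups overlapped, with 8.36 to 8.53 with IL-4 and 8.49 to 8.69 with vehicle. All 3 probes were thus lower on average with IL-4, and 2 of the 3 passed. Which Pparg transcript each probe reads was not analysed here.

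Cebpa, the partner that sustains Pparg in the fat cell, had the smallest p of the 9 genes. It read 8.81, 8.79, 8.77 and 8.96 in wild-type cells with IL-4, against 9.27, 9.18, 9.29 and 9.18 in wild-type cells with vehicle. Every IL-4 array was below every vehicle array. The means were 8.83 ± 0.09 with IL-4 and 9.23 ± 0.06 with vehicle (SD, n = 4 each), and the change was -0.40 ± 0.06 (SE; limma adjusted p = 0.000119).

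Cebpb, the early factor, did not follow. It read 11.26, 11.25, 11.11 and 11.27 in wild-type cells with IL-4, against 11.05, 11.23, 11.24 and 10.97 in wild-type cells with vehicle. The groups overlapped, and the difference was 0.10 with a 95% confidence interval of -0.05 to 0.25 (limma adjusted p = 0.482). A fall as large as that of Cebpa lies outside this interval.

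The promoters of Pparg and Cebpa, the factors that maintain each other's expression, and of Adipoq, a gene they turn on, are shown because all 3 genes fell in wild-type cells. Those of Srebf1 and Zfp423, which also fell, were searched too and are not printed. They are the 250 bases before the annotated start, from RefSeq (GRCm38.p6), on the plus strand, 5′ to 3′, with matches to the CCAAT box and the TATA box in capitals. For Pparg all 3 annotated starts are shown. The regions are chr16:23146286-23146535 for Adipoq, chr7:35119043-35119292 for Cebpa, and chr6:115360894-115361143, chr6:115362099-115362348 and chr6:115421816-115422065 for the Pparg starts.
Adipoq: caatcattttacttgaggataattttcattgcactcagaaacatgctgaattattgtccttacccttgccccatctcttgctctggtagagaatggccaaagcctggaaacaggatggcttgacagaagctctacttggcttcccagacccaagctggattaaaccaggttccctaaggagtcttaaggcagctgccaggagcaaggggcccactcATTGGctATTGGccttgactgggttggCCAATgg
Cebpa: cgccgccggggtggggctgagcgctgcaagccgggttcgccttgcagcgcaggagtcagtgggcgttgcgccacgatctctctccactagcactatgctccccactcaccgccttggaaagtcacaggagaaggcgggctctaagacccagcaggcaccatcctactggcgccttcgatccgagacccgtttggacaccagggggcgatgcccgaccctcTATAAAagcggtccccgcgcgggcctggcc
Pparg, the first start: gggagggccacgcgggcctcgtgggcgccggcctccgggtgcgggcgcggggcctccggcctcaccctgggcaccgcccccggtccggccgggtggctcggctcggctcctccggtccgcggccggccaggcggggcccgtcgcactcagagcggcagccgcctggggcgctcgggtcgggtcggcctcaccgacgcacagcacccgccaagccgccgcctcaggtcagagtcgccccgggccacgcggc
Pparg, the second start: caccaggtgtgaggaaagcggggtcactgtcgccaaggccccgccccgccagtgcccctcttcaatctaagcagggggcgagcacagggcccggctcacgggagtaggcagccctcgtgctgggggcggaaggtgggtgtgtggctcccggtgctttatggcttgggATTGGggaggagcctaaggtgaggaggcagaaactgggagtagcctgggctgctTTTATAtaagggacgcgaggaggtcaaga
Pparg, the third start: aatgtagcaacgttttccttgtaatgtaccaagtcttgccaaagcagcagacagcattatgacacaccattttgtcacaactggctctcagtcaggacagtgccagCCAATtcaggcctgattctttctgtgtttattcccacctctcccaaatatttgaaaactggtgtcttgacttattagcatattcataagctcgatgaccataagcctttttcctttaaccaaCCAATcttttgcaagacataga

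Adipoq has 3 CCAAT boxes (CCAAT on either strand) in the last 34 bases before its start, and the third Pparg start has 2, at -144 to -140 and -22 to -18. The second Pparg start has 1 at -83 to -79 and, on the minus strand, a match to the TATA box (TATAAA) at -29 to -24. The first Pparg start has no match to any motif searched. Cebpa has a TATA box match at -30 to -25. All 9 genes matched the RefSeq promoters by symbol, with 15 start sites, and both strands were searched. A CCAAT box was found in 6 of the 15, against 33.8% of 32851 promoters, and a TATA box in 2 of the 15, against 12.4% of promoters. The STAT6 motif, TTC and GAA with 4 bases between them, was in none of the 15 and in 5.85% of all promoters, and the shorter STAT letters TTCNNNGAA were in none of the 15 and in 7.02% of all. The C/EBP letters TTNCGCAA were in 1, that of Lep at -55 to -48, and in 0.670% of all promoters. The motif named direct repeat 1, the form bound by PPAR gamma with RXR, was in none of the 15 and in 0.338% of all. A match here is a description of letters and not a binding site.

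Among the preadipocyte factors, Zfp423 passed the test with a small change. Its brighter probe read 8.096, 8.002, 8.044 and 8.064 in wild-type cells with IL-4, against 8.183, 8.127, 8.120 and 8.172 in wild-type cells with vehicle. The groups did not overlap, and the probe fell by 0.10 ± 0.02 (SE; limma adjusted p = 0.00685). Because the probe lies near the array minimum the size depends on the background: with the minimum subtracted and an offset of 50 the change was -0.24. The dimmer probe changed by -0.05 and did not pass (limma adjusted p = 0.208). Ebf1 had a mean of 7.98 in both wild-type groups, with a 95% confidence interval of the difference of -0.05 to 0.05. Klf15, an activator of Pparg and of lipid genes, read 7.80 to 7.87 with IL-4 and 7.84 to 7.91 with vehicle, within 0.15 of the array minimum, and did not pass (limma adjusted p = 0.254).

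Srebf1 encodes the SREBP1 proteins, of which SREBP1c drives fatty acid synthesis genes. Its brighter probe read 8.61, 8.51, 8.59 and 8.44 in wild-type cells with IL-4, against 8.81, 8.90, 8.76 and 9.01 in wild-type cells with vehicle. All 4 IL-4 arrays were below all 4 vehicle arrays, and the probe fell by 0.33 ± 0.06 (SE; limma adjusted p = 0.00139). With the array minimum subtracted and an offset of 50 this became -0.54. The other Srebf1 probe averaged 7.80, within 0.15 of the minimum, and did not change measurably (0.01, limma adjusted p = 0.909), so the mean of both probes gave -0.16 (limma adjusted p = 0.00164).

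**Figure D2:**
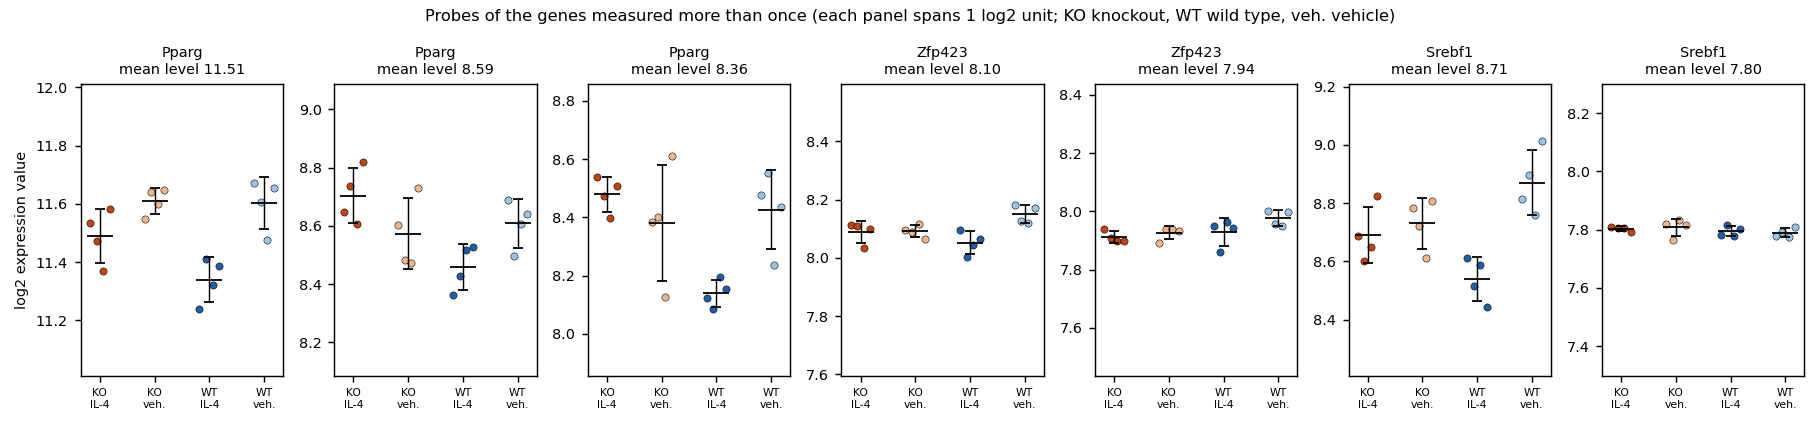
Log2 expression value (y axis, each panel spanning the same range) of every probe of the genes with more than 1 probe, in the 4 groups (x axis), with single arrays as points, group means as bars and 1 SD as whiskers (n = 4). All 3 Pparg probes have a lower mean in wild-type cells with IL-4 than with vehicle, whereas the Srebf1 probe at 7.80 does not follow the one at 8.71.

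Adiponectin is the secreted product of the fat cell programme. Adipoq read 12.10, 12.32, 12.35 and 12.22 in wild-type cells with IL-4, against 12.49, 12.82, 12.77 and 12.65 in wild-type cells with vehicle. No IL-4 array reached the lowest vehicle array. The means were 12.25 ± 0.11 with IL-4 and 12.68 ± 0.15 with vehicle (SD, n = 4 each), and the change was -0.44 ± 0.08 (SE; limma adjusted p = 0.00192). Lep read 7.87 to 7.90 with IL-4 and 7.87 to 7.89 with vehicle, near the minimum in both, and the 95% confidence interval of its difference was -0.03 to 0.03. By the brightest probe of each gene, the wild-type groups did not overlap for Adipoq, Cebpa, Srebf1, Pparg and Zfp423, and for 18.6% of all genes. That share was not computed for genes above the array minimum alone. With the dimmest Pparg probe, 6 of the 13 probes did not overlap, and the share of all probes was not computed.

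In knockout cells none of the 9 genes passed the test, in either direction. No gene of the array passed it either (0% lower and 0% higher by limma). At an unadjusted p under 0.05 there were 2 of the 9 genes by their brightest probe, Pparg and Lep. Of all 25697 probes, 1439 were under it, a count of probes and not of genes. With a trended and robust variance model none of the 9 genes and 1 probe of all passed. Adipoq read 12.90, 12.81, 12.86 and 12.73 in knockout cells with IL-4, against 12.84, 12.55, 12.68 and 12.90 in knockout cells with vehicle, overlapping groups with a difference of 0.08 (95% confidence interval -0.10 to 0.26). Cebpa read 9.25, 9.13, 9.26 and 9.17 with IL-4, against 9.04, 9.21, 8.97 and 9.20 with vehicle, a difference of 0.09 (-0.02 to 0.21). For both genes the interval of the knockout difference leaves out a fall as large as the wild-type one.

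Pparg in the knockout depended on the probe. The brightest probe read 11.53, 11.47, 11.37 and 11.58 in knockout cells with IL-4, against 11.55, 11.64, 11.60 and 11.65 in knockout cells with vehicle. These groups overlapped, with a difference of -0.12 (95% confidence interval -0.23 to -0.01) that did not pass over all probes (limma adjusted p = 0.874). The other probes differed the other way, by 0.13 (-0.00 to 0.26) and 0.10 (-0.08 to 0.27), and did not pass. Srebf1 differed by -0.04 (-0.17 to 0.09) and the brighter Zfp423 probe by -0.00 (-0.05 to 0.05).

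**Figure D3:**
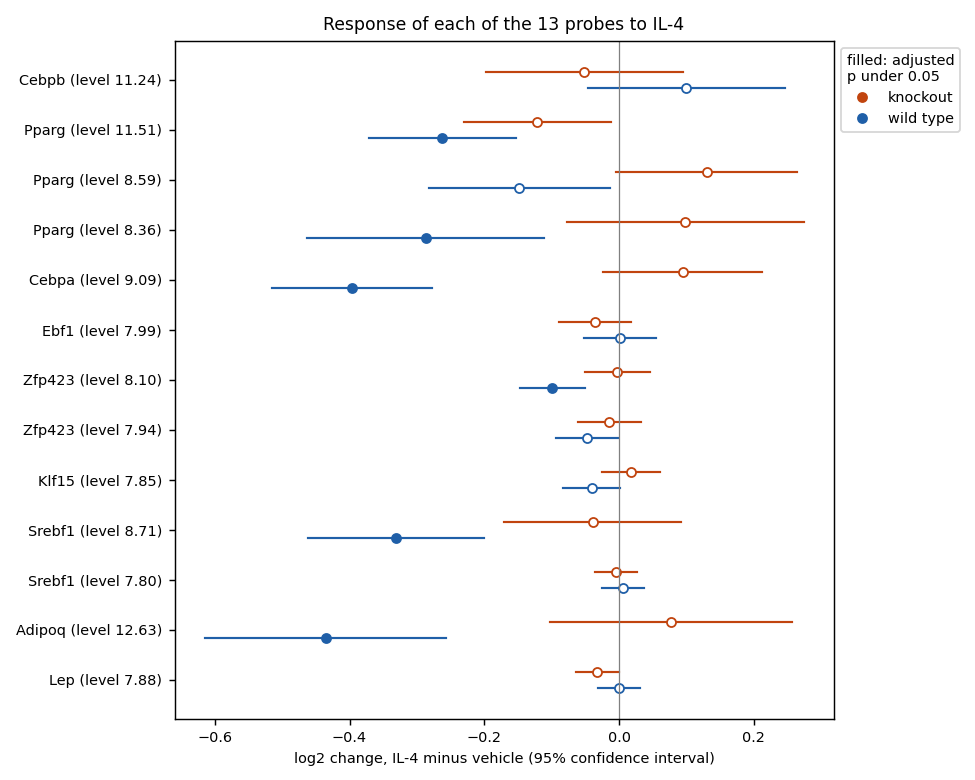
Log2 change with IL-4 (x axis, IL-4 minus vehicle) of each of the 13 probes (y axis, named by gene and mean level) in knockout and wild-type cells, with 95% confidence intervals. Filled points passed limma at an adjusted p under 0.05. The 6 filled points are all wild-type changes below 0, from -0.44 for Adipoq to -0.10 for Zfp423.

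The difference between the responses, knockout minus wild type, was tested directly. Cebpa and Adipoq passed, both with a higher value in the knockout, as did 5.27% of all genes, and none of the 9 genes passed with a lower value, against 4.75% of all genes. Cebpa differed by 0.49 ± 0.08 (SE; limma adjusted p = 0.000773). Adipoq differed by 0.51 ± 0.12 (limma adjusted p = 0.0127), a call that was lost without knockout vehicle arrays 2 and 3 (0.38, limma adjusted p = 0.0661), whereas Cebpa kept it there (1 of the 9 genes). Srebf1 differed by 0.29 ± 0.09 (limma adjusted p = 0.0524), Zfp423 by 0.10 (limma adjusted p = 0.0870) and the brightest Pparg probe by 0.14 (limma adjusted p = 0.344), so for these genes a difference between genotypes was not established. The dimmer Pparg probes differed by 0.28 and 0.39 (limma adjusted p = 0.0739 and 0.0565), and with the 3 probes averaged Pparg passed (0.27, limma adjusted p = 0.0299). Without wild-type IL-4 array 5 the count was 4 of the 9 genes, with Srebf1 (0.32, limma adjusted p = 0.0442) and Zfp423 (0.11, limma adjusted p = 0.0408) added. Srebf1 also passed without knockout IL-4 array 2, knockout vehicle array 4 or wild-type vehicle array 3 (0.32 to 0.33, limma adjusted p from 0.0317 to 0.0451), and Zfp423 without knockout IL-4 array 3 (0.11, limma adjusted p = 0.0297). The dimmer Pparg probes both passed without knockout vehicle array 4 (0.33 and 0.46, limma adjusted p = 0.0187 and 0.00893), the one of middle brightness also without wild-type vehicle array 2 (0.32, limma adjusted p = 0.0460) and the dimmest also without wild-type vehicle array 3 (0.45, limma adjusted p = 0.0211). Single arrays thus decide these calls, and those of Cebpa and Adipoq held with each array left out.

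With vehicle alone, none of the 9 genes passed the test between knockout and wild-type cells by limma, while 1.85% of all genes were lower and 1.42% higher in the knockout. At an unadjusted p under 0.05 there were 4 of the 9 genes by their brightest probe, and 3485 of all 25697 probes, a count of probes and not of genes. Cebpb came closest, with 11.22, 11.40, 11.48 and 11.26 in knockout cells, against 11.05, 11.23, 11.24 and 10.97 in wild-type cells, a difference of 0.22 ± 0.07 (SE; limma adjusted p = 0.125). The remaining 3 were Zfp423 with -0.06, Cebpa with -0.12 and Srebf1 with -0.14. Zfp423 was the gene whose vehicle groups did not overlap by either probe, at 8.066 to 8.115 in the knockout and 8.120 to 8.183 in wild type for the brighter probe. Both probes lie close to the array minimum, and the share of all genes without overlap was not computed for this comparison.

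With IL-4 in both genotypes, Adipoq and Cebpa were higher in the knockout, against 9.11% of all genes higher and 8.18% lower, and none of the 9 genes was lower. Adipoq averaged 12.82 ± 0.07 in knockout cells and 12.25 ± 0.11 in wild-type cells (SD, n = 4 each), a difference of 0.58 ± 0.08 (SE; limma adjusted p = 0.000170), and Cebpa was higher by 0.37 ± 0.06 (limma adjusted p = 0.000224). The dimmer Pparg probes were higher by 0.24 and 0.34 (limma adjusted p = 0.0148 and 0.00948), and the brightest by 0.15, which did not pass (limma adjusted p = 0.0697). With the 3 probes averaged Pparg was higher by 0.24 (limma adjusted p = 0.00348), and with dim probes left out of the table the brightest probe passed (limma adjusted p = 0.0345). With the array minimum subtracted and an offset of 50 the dimmer probes were higher by 0.42 and 0.70. The first of these calls was lost without knockout IL-4 array 4 (0.20, limma adjusted p = 0.0523) or without wild-type IL-4 array 5 (0.21, limma adjusted p = 0.0501), and the brightest probe passed without knockout IL-4 array 3 (0.19, limma adjusted p = 0.0195). It also passed without wild-type vehicle array 3, which is not part of this difference, at an unchanged 0.15 (limma adjusted p = 0.0404). These last comparisons share arrays with the responses above, so they are not separate evidence.

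By group mean, Adipoq was lowest in wild-type cells with IL-4 at 12.25, followed by wild-type vehicle at 12.68, knockout vehicle at 12.75 and knockout IL-4 at 12.82, and the 3 highest groups overlapped. Cebpa had the order 8.83 in wild-type cells with IL-4, then 9.11 in knockout vehicle, 9.20 in knockout IL-4 and 9.23 in wild-type vehicle, again with an overlap of the 3 highest. Pparg and Srebf1 were also lowest in wild-type cells with IL-4, at 11.34 and 8.54, and there the next group, knockout IL-4 at 11.49 and 8.69, was within reach of it: 1 Pparg and 1 Srebf1 array of that group lay inside the wild-type IL-4 range. For Srebf1, knockout vehicle array 3 at 8.611 also lay inside that range, just below its top of 8.613.

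Genes that PPARG and C/EBPA are known to switch on were followed as a list of 28, of which 26 were measured. This list and the other lists below were chosen with earlier results of these data known. Their shares beside those of all genes are therefore a description and not a test. In wild-type cells 17 fell with IL-4 and none rose. The share that fell was 65.4%, against 8.79% of all genes and 18.5% of genes above the array minimum. The median change of the list was -0.33, against -0.00157 over all genes, those near the array minimum included. Dgat2, which makes triglyceride, fell by 0.91 ± 0.09 (SE; limma adjusted p = 2.65e-06). Adig, also called adipogenin, fell by 0.77 ± 0.09, and Aqp7, the glycerol channel of fat cells, fell by 0.74 ± 0.07 with all 4 of its probes passing (-0.49 with the probes averaged). The 9 that did not pass were Gpam, Angptl4, Fabp4, Ucp1, Hp, Cidea, Cd36, Pck1 and Plin2, and 4 genes of the list were within 0.15 of the array minimum. Hp held the highest value of the whole array on 13 of the 16 arrays (3 with IL-4 and 4 with vehicle in wild type), so a rise there could not be seen. Lpl, among the 17, also stood near the top, where the normalization sets the value by rank. In knockout cells none of the 26 passed, with a median change of -0.01. The difference between the responses passed for 13 (5.27% of all genes were higher), all higher in the knockout, and for 11 without knockout vehicle arrays 2 and 3. With vehicle alone 6 were lower in the knockout (Adig, Agpat2, Lipe, Lpin1, Plin4 and Pnpla2) and 1, Angptl4, was higher, against 1.85% lower and 1.42% higher of all genes. For vehicle alone and for the difference of the responses, shares among genes above the array minimum were not computed.

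**Figure D4:**
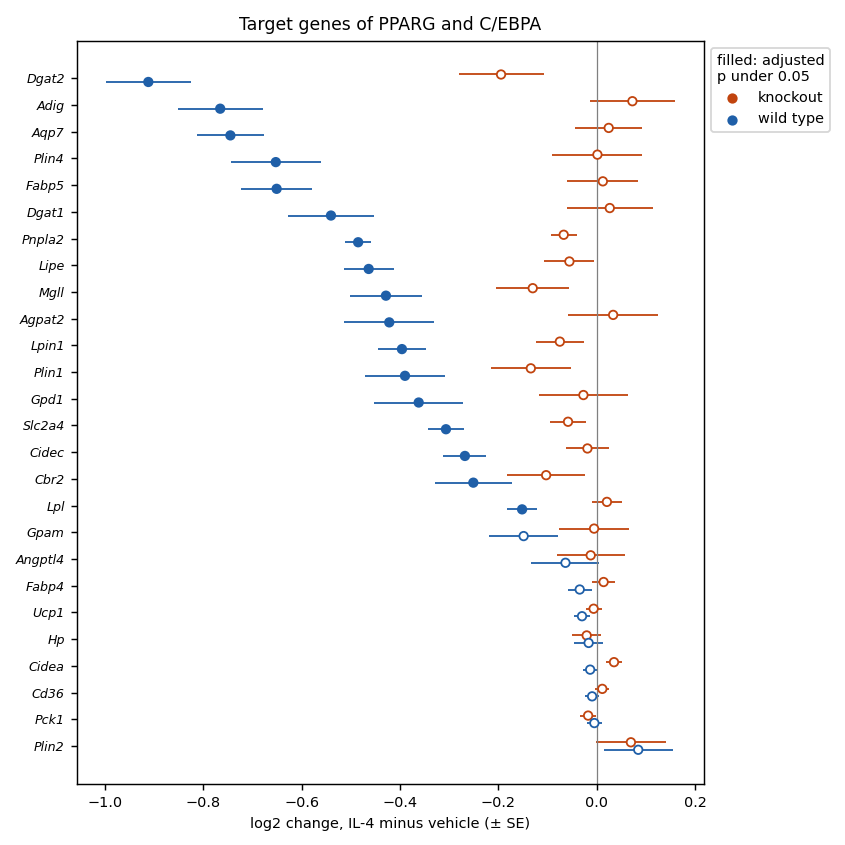
Log2 change with IL-4 (x axis, IL-4 minus vehicle, with its SE) of the 26 measured target genes of PPARG and C/EBPA (y axis) in knockout and wild-type cells. Filled points passed limma at an adjusted p under 0.05. In wild type 17 genes passed, all below 0, and in the knockout none did.

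The listed regulators around these factors include genes that rose and genes that fell. Of 27 measured activators of adipogenesis (28 listed), 3 rose and 8 fell in wild-type cells with IL-4, with a median change of -0.02. The share that rose was 11.1%, against 14.5% of genes above the array minimum and 7.14% of all genes, and the share that fell was 29.6%, against 18.5% and 8.79%. The rises were those of the Krüppel-like factors Klf6 (0.40 ± 0.09, SE, 1 of 2 probes), Klf9 (0.37 ± 0.10) and Klf4 (0.30 ± 0.04, all 3 probes), of which Klf4 acts early upstream of Cebpb. The largest falls were those of Bmp4, a signal that commits progenitors to the fat lineage (-1.10 ± 0.07), of the coactivator Ppargc1b (-0.60 ± 0.07) and of Nr1h3, the oxysterol receptor LXR alpha that induces Srebf1 (-0.43 ± 0.07, 1 of 2 probes). The Klf9 call (limma adjusted p = 0.0254) was lost without any 1 of wild-type IL-4 arrays 6, 7 and 8 and vehicle arrays 1 and 4, with adjusted p from 0.0518 to 0.0835.

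Of 23 measured inhibitors of adipogenesis (25 listed), 1 rose and 4 fell, or 4.35% and 17.4%. The share that fell is near that of all genes above the array minimum (18.5%), so the count is no result about inhibitors as a group. Nr2f2, the nuclear receptor COUP-TFII, rose by 0.38 ± 0.02 (SE) by 1 of 3 probes. Zfp521, which opposes ZFP423 and EBF1, fell by 0.39 ± 0.07 by 1 of 2 probes, and Dlk1, the preadipocyte factor Pref-1, fell by 0.21 ± 0.03. Irf3 fell by 0.28 ± 0.08 by 1 of 3 probes (limma adjusted p = 0.0200), and its call was lost without wild-type IL-4 array 7 or 8 or vehicle array 4, with adjusted p from 0.0581 to 0.0710. Without knockout vehicle array 2, and without arrays 2 and 3 of that group together, 2 inhibitors rose in place of 1.

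Where several probes disagree the brightest need not be the right one: averaged over the probes, Klf6 changed by 0.21, Klf4 by 0.20, Nr1h3 by -0.22, Nr2f2 by 0.13, Zfp521 by -0.22 and Irf3 by -0.11, all past the threshold. With the array minimum subtracted and an offset of 50, Klf4 changed by 0.58, Bmp4 by -1.74, Dlk1 by -0.45, Nr2f2 by 0.89 and Zfp521 by -0.74, more than 1.5 times the values above.

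Of 10 measured SREBP1c target genes (12 listed) 1 fell in wild-type cells and none rose, and 2 fell without wild-type vehicle array 4. This share is near the 8.79% of all genes and is no result about the list. The gene was Acaca, encoding acetyl-CoA carboxylase, with -0.36 ± 0.08 (SE; limma adjusted p = 0.00423). Of 9 measured adipokines and their receptors (11 listed, Adipoq not among them) 4 fell and none rose. The share that fell was 44.4%, against 8.79% of all genes and 18.5% of genes above the array minimum. The largest falls were those of Rarres2, which encodes chemerin (-0.35 ± 0.06), and the adiponectin receptors Adipor1 (-0.22 ± 0.04) and Adipor2 (-0.43 ± 0.05). Both adiponectin and its receptors were thus lower in wild-type cells with IL-4. In the knockout none of the activators, inhibitors, SREBP1c targets or adipokine genes passed.

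Of the 8 measured FAP markers, 4 rose (Cd34, Hic1, Osr1 and Pi16) and 2 fell (Dcn and Lum) in wild-type cells with IL-4. The median change was 0.13, so the mean over the list hides changes in both directions. The share that rose was 50%, against 7.14% of all genes and 14.5% of genes above the array minimum. The share that fell was 25%, against 8.79% and 18.5%. In knockout cells with vehicle 2, Dcn and Hic1, were higher than in wild type, or 25% of the list, against 1.42% of all genes. The share among genes above the array minimum was not computed there. Markers of other cells read as follows. The mean of the 7 measured leukocyte markers was 7.92 to 7.95 in wild-type cells with IL-4 and 8.09 to 8.12 in wild-type cells with vehicle, with 1 gene falling, Lyz2, and 5 of the 7 near the array minimum. The mean of the 7 pericyte and smooth muscle markers was 7.99 to 8.01 with IL-4 and 8.06 to 8.09 with vehicle, with 1 gene falling, Mcam, and 3 near the minimum. The 7 endothelial markers had 1 gene falling, Tek, with means of 7.85 to 7.87 with IL-4 and 7.86 to 7.89 with vehicle and 5 near the minimum. In each of these lists 14.3% fell, against 8.79% of all genes and 18.5% of genes above the array minimum. Such counts are no result about the lists. None of the 7 measured myogenic markers passed, and their mean stayed between 7.82 and 7.85 on every wild-type and knockout array. The part of FAP state or of these cells in the changes of Pparg, Cebpa, Srebf1, Zfp423 and Adipoq was not tested.

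The genes with the pattern most like that of Adipoq over the 16 arrays, by the root mean square difference of values centred on each gene's mean, were Lum (0.0850), Celf2 (0.0958), Angpt1 (0.103), Pygl (0.104) and Slc10a6 (0.105), against an SD of Adipoq itself of 0.258. Lum, a matrix proteoglycan and one of the FAP markers, changed by -0.42 ± 0.05 (SE) in wild-type cells with IL-4. For Pparg by its brightest probe they were Smim19 (0.0676), Pick1 (0.0695), Slc7a10 (0.0739), Eif4e3 (0.0755) and Polrmt (0.0774), against an SD of 0.133. None of the 5 genes of either list remained when the array minimum was subtracted with an offset of 50.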

How the data were processed

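RNA of cultured FAPs was purified on RNeasy columns and hybridised to 16 Illumina MouseRef-8 v2.0 arrays, per the labels' protocols. The authors deposited a single value for each probe on each array, taken here as log2 because the values span 7.72 to 14.77. The deposited values were already normalized between arrays, since the sorted values of any 2 arrays differed by at most 0.00059155. How background was treated, which program was used and the base of the logarithm are not given in the sources used here. If the scale is not log2, fold changes, above all of dim probes, would differ.

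Groups came from the sample titles, and no batch is given. The titles number the wild-type IL-4 arrays apart from the wild-type vehicle arrays, while both knockout groups share the same numbers. Any difference between the separately numbered wild-type sets cannot be told apart from the IL-4 treatment. Replicates of a group correlated at 0.994 to 0.998 and no arrays were duplicates. Gene names came from the probe annotation of the platform, which gave 1 symbol to 23978 probes, several to 0 and no name to 1719. Entrez numbers placed 23962 of the named probes in RefSeq's GRCm38 table. The brightest probe stands for a gene in counts.

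With R 4.3.3 and limma 3.58.1, a linear model with 1 mean per group was fitted to all 25697 probes and 16 arrays, leaving 12 residual degrees of freedom, and variances were moderated by empirical Bayes. The 5 comparisons are IL-4 minus vehicle in each genotype, the difference of these responses, and knockout minus wild type under vehicle and under IL-4. Two-sided p-values were Benjamini-Hochberg adjusted over all probes, with a threshold of 0.05. The code was tested on simulated data. The number of arrays limits the precision.

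The genes named are all 10 genes of the set, up to 3 largest rises and 3 largest falls past the threshold in the wild-type response of each list, and the 5 nearest genes of Adipoq and of Pparg. The genes and lists were chosen with earlier results of these data known. Alternatives were other normalizations, a background subtraction, a filter on dim probes, other variance models, averaged probes, a stricter threshold, fits of just the groups compared, a block for the replicate number, and each array removed in turn. Matplotlib 3.10.9 drew the figures.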

Additional observations from a re-analysis of the deposited data

Results flagged for a closer look

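The response to IL-4 differed between knockout and wild-type cells for Cebpa, by 0.49 ± 0.08, and for Adipoq, by 0.51 ± 0.12 (SE, limma's test of the difference itself, knockout minus wild type). For Cebpa all 4 wild-type IL-4 arrays lay below all 4 wild-type vehicle arrays, while the knockout groups overlapped, and for Adipoq likewise. The Adipoq call did not hold without knockout vehicle arrays 2 and 3 (limma adjusted p = 0.0661).

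Single arrays lay far from the rest of their group for 2 probes. Cebpb was 11.11 on wild-type IL-4 array 7, with the next array at 11.25, and the gap was 0.871 of the group's range. The dimmer Zfp423 probe was 7.89 on knockout vehicle array 1, with the next array at 7.93, a gap of 0.833 of the range in a span of values near the array minimum. Chance alone gives such a gap in about 1 of 20 groups, and 52 groups were examined. Leaving out either array changed no call of that probe.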

How the results depend on the processing

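No called result changed its direction under any alternative run. The 5 wild-type calls held in all 26 alternatives for that comparison, the absence of calls in the knockout held for the 9 genes in all 27, and 2 to 3 of them passed under IL-4 between genotypes in 26. For the difference of the responses 2 of the 9 genes passed, against 1 at an adjusted p of 0.01, 1 without knockout vehicle arrays 2 and 3 (chosen after seeing the data) and 2 to 4 with each array left out. Over all probes the counts were 2156 against 1266 at that stricter threshold, and in the knockout 0 against 1 with a trended and robust variance model. Between genotypes under vehicle 690 probes passed, against 245 at the stricter threshold, 385 without the 2 knockout vehicle arrays and 447, 426 and 456 without wild-type vehicle array 1, 2 or 4. With only the groups compared, 2 inhibitors rose and 2 SREBP1c targets fell in wild type, against 1 and 1, and Irf3 did not pass (adjusted p = 0.0508). The brighter Srebf1 probe and both dimmer Pparg probes passed for the difference of the responses after background subtraction, with dim probes left out and with a trended and robust variance model. The causes were not tested.

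The titles number the arrays, and wild-type IL-4 carries numbers of its own, so no block exists for it. Between the other groups same-numbered arrays did not deviate together (correlations -0.238 to 0.157). With the replicate number as a block, 0 of the 9 genes passed in the knockout and 1, Cebpb (0.22, adjusted p = 0.0348), between genotypes under vehicle, where it was 0 without the block, 354 against 690 of all probes passed, and 3 against 6 target genes were lower. The second nearest-gene search, after background subtraction, was also chosen after seeing the data. Signal near the array minimum limits Klf15, Lep, Ebf1 and the dimmer Srebf1 and Zfp423 probes.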

Other observations

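Within the fat cell programme some probes were bright and others close to the array minimum. Lpl, which encodes lipoprotein lipase, averaged 14.58 and Pnpla2, a triglyceride lipase, averaged 13.88 over the 16 arrays. By contrast, Fabp4, a fatty acid binding protein of fat cells, averaged 7.89 and the fatty acid carrier Cd36 averaged 7.84. Fasn, a fatty acid synthase gene and SREBP1c target, averaged 7.81, within 0.15 of the minimum. Each of the 5 genes had 1 probe, and probes differ in how well they bind, so these values are no ranking of transcripts.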
